A study of Mus musculus with 12 samples.

Results

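The transcription factor NRF2 (Nfe2l2), its inhibitor KEAP1 (Keap1) and 8 antioxidant genes that NRF2 is known to drive were followed in mouse eosinophils that lacked or kept Atg5. The members were named by symbol, with symbols mapped from the Ensembl identifiers of the count table, and were Nfe2l2, Keap1, Nqo1, Hmox1, Gclm, Gclc, Txnrd1, Srxn1, Slc7a11 and Gsr, 10 of the 53801 genes in the count table. All 10 were found and all 10 passed the filter on low counts in every comparison. RNA was sequenced from eosinophils of bone marrow and of blood, with 3 libraries from each tissue and genotype, 12 in all. The Atg5-knockout mice were Atg5 flox/flox eoCre Il5tg, and the control mice were eoCre Il5tg with unfloxed Atg5. Every group therefore carried eoCre, a Cre knocked into the eosinophil peroxidase gene Epx, which lowers peroxidase itself, and Il5tg, an interleukin-5 transgene driven by the T cell promoter of Cd3d that raises eosinophil numbers. Age and sex were not given in the sources used here.

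NRF2 is made continuously and is destroyed while KEAP1 holds it for ubiquitination. Oxidants and electrophiles modify KEAP1, NRF2 then accumulates as a protein, enters the nucleus with small MAF partners and binds antioxidant response elements near its targets. The autophagy receptor p62 (Sqstm1) binds KEAP1 as well and is itself degraded by autophagy, so that p62 left over when autophagy fails can free NRF2. The question addressed by the knockout comparisons was whether the transcripts of NRF2 targets were higher in eosinophils without Atg5, a gene needed to build autophagosomes. RNA counts measure neither the p62 protein nor the NRF2 protein. On GRCm38, Nfe2l2 (ENSMUSG00000015839) lies on the minus strand at chr2:75675513-75704641, and Keap1 (ENSMUSG00000003308) on the minus strand at chr9:21229730-21239361. Counts were summed over the exons of each gene.

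Levels are given as CPM, counts scaled to a common library size, with TMM factors over the 12 libraries, and a gene was called changed at an adjusted p under 0.05 by edgeR's quasi-likelihood test over all genes tested. Libraries held 18885052 to 30270166 counts, and the lowest count of any member in any library was 227, for Gclc. Eosinophil markers such as Prg2 and Epx had counts in every group, with marker shares of 8.04 to 10.2% of all counts in bone marrow and 1.80 to 4.05% in blood. Whole-gene Atg5 counts do not check a partial deletion. Atg5 stood at 41.4, 45.4 and 40.5 CPM in control and 30.6, 31.3 and 33.9 CPM in Atg5-knockout bone marrow eosinophils, without overlap, and was not called (log2 fold change -0.44, SE 0.11, adjusted p 0.157, edgeR). In blood it stood at 45.3, 58.8 and 40.1 CPM in control and 36.7, 52.5 and 52.4 CPM in knockout libraries, which overlapped. Red cell markers took 14.79% of the counts of blood control replicate 1 (exact Clopper-Pearson 95% interval 14.77 to 14.81%) and at most 1.445% elsewhere (1.44 to 1.449%), intervals that cover counting error only. T and B cell markers were highest in the blood libraries numbered 1 of both genotypes, so values are also given without these libraries where they matter.

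**Figure D1:**
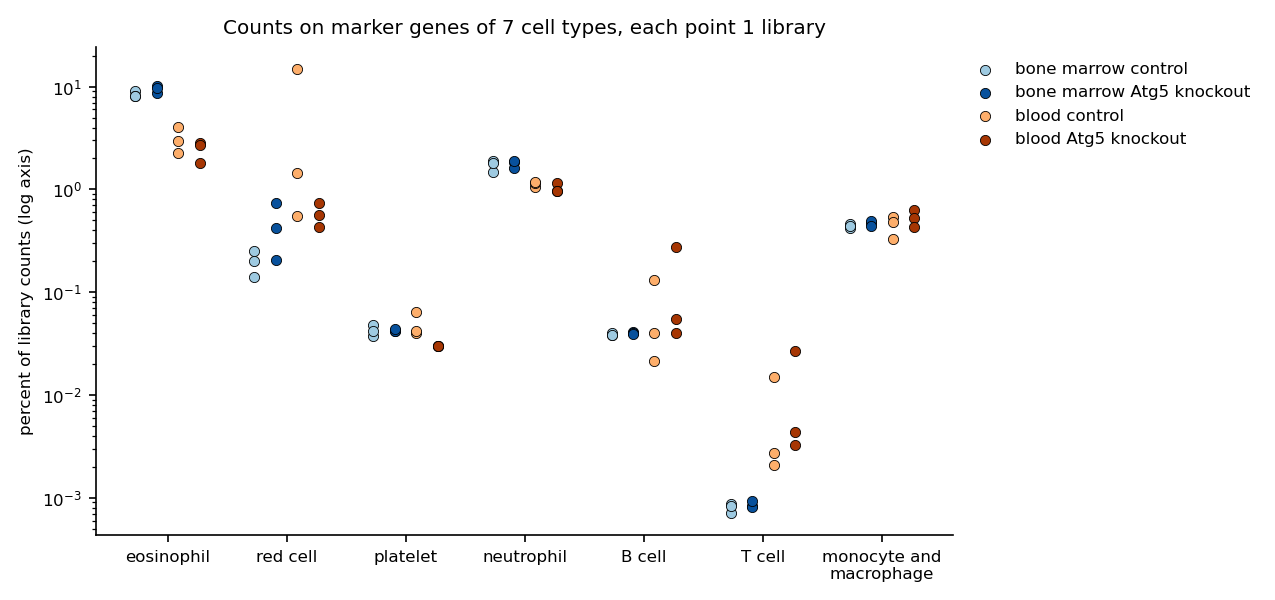
Share of each library's counts on marker genes of 7 cell types, in percent on a log axis, with 1 point per library and colours for the 4 groups. Red cell markers reached 14.8% in 1 blood control library, and T cell markers were higher in every blood library than in every bone marrow library.

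The stretches upstream of 4 members are shown because 3 of them (Nqo1, Slc7a11 and Srxn1) were higher in blood than in bone marrow, as described below, whereas Gclm was not called there. They run from 250 to 11 bases before the annotated start, 5′ to 3′ on the gene's strand, from RefSeq on GRCm38.p6. Capitals mark matches to the antioxidant response element core TGACNNNGC or to the AP-1-type motif TGANTCA on either strand, and the matches did not overlap each other.

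Nqo1, chr8:107403216-107403455, minus strand: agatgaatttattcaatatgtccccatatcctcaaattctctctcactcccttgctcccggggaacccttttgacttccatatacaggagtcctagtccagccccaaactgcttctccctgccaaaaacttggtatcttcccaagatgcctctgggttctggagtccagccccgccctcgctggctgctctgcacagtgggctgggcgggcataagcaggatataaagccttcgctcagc
Slc7a11, chr3:50443624-50443863, minus strand: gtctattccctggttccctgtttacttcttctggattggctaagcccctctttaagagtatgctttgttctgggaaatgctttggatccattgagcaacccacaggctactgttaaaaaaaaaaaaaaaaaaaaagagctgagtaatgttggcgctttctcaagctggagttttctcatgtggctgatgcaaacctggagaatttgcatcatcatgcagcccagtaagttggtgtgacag
Srxn1, chr2:152105274-152105513, plus strand: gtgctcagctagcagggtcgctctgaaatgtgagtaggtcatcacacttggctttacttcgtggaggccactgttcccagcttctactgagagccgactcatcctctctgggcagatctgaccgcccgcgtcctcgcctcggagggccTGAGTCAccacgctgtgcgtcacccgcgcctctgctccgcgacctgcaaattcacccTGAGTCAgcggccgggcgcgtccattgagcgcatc
Gclm, chr3:122245307-122245546, plus strand: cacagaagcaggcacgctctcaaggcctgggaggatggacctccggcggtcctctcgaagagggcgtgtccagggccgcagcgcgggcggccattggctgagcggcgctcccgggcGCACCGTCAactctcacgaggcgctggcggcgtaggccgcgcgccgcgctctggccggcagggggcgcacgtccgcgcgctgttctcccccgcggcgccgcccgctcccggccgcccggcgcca

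None of these stretches lay in an exon of the count table's annotation. Windows of 300 bases, 250 before to 50 after the start, were at hand for 7 of the 10 members, namely those 4 with Nfe2l2, Keap1 and Txnrd1. They had 9 windows, 3 of them for Txnrd1, and the core TGACNNNGC occurred in 4 of the 9 and in 12.4% of all 32851 windows. In Gclm the match read TGACGGTGC on the minus strand, with its first base 134 bases before the start. In Nfe2l2 it read TGACTCCGC, 240 bases before the start, and in Txnrd1 TGACAAAGC on the minus strand, 92 bases before the start. In Srxn1 the core match TGACCTAGC lay after the start and is not in the stretch shown. The Srxn1 stretch held TGAGTCA at 102 and at 45 bases before the start, and TGANTCA occurred in 7.8% of all windows. Nqo1, Slc7a11 and Keap1 had neither motif in these windows, which says only that these letters were not in these bases.

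Loss of Atg5 was not accompanied by a called change in the transcripts of NRF2, KEAP1 or any of the 8 targets in bone marrow eosinophils. Of the 10 members 0 were called, where 0.348% of the 13781 genes tested were called in either direction. Their log2 fold changes, knockout against control, ran from -0.077 to 0.30 with 7 above 0 and 3 below, and their median was 0.097 against 0.0029 over all genes tested. No member reached an unadjusted p under 0.05, whereas 1333 of all genes did.

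Nfe2l2 itself was measured at 93.8, 91.3 and 90.6 CPM in control and 88.3, 93.4 and 92.5 CPM in knockout bone marrow libraries. The groups overlapped, and the 95% interval of the fold was 0.846 to 1.12. Keap1 read 38.0, 50.5 and 43.0 CPM in control and 48.5, 51.4 and 43.3 CPM in knockout libraries, which also overlapped. Part of the Keap1 exons, 510 bases, is shared with the antisense gene Gm16754, and reads were counted without regard to strand.

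Nqo1, a quinone reductase often used as the readout of NRF2 activity, had the largest difference among the members. It stood at 7.24, 8.66 and 9.08 CPM in control and at 10.8, 9.11 and 11.6 CPM in knockout bone marrow libraries. Knockout replicates 1 and 3 lay above all controls, and replicate 2 lay level with the highest control, below it when the 6 bone marrow libraries were scaled on their own. The log2 fold change was 0.30 (SE 0.16, 95% interval of the fold 0.965 to 1.58, adjusted p 0.586, edgeR).

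Gclm, the modifier subunit of glutamate-cysteine ligase, was the only member whose bone marrow groups did not overlap in the scaling of those 6 libraries, at 40.7, 42.0 and 44.5 CPM in control and 46.0, 47.5 and 47.0 CPM in knockout libraries. Every knockout library lay above every control library, which 7.13% of all genes tested also did (14.2% did not overlap in either direction), and the difference was not called (log2 fold change 0.12, SE 0.099, adjusted p 0.754, edgeR). Gclm shares exon bases with the antisense gene Gm17494 and with Gm6061, so its counts are uncertain to that extent. Heme oxygenase 1 (Hmox1) was measured at 26.8, 24.7 and 21.2 CPM in control and 25.7, 27.9 and 28.2 CPM in knockout libraries. Srxn1, which repairs overoxidized peroxiredoxins, was measured at 15.98, 13.8 and 18.7 CPM in control and 19.6, 17.8 and 19.2 CPM in knockout libraries. Both overlapped between genotypes, as did Gclc, the catalytic subunit of glutamate-cysteine ligase, thioredoxin reductase 1 (Txnrd1), the cystine importer Slc7a11 and glutathione reductase (Gsr), whose log2 fold changes lay between -0.077 and 0.10. Sqstm1 stood at 238.0, 236.0 and 218.3 CPM in control and 252.7, 220.9 and 254.8 CPM in knockout libraries, which overlapped (log2 fold change 0.044, SE 0.10, adjusted p 0.925, edgeR).

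**Figure D2:**
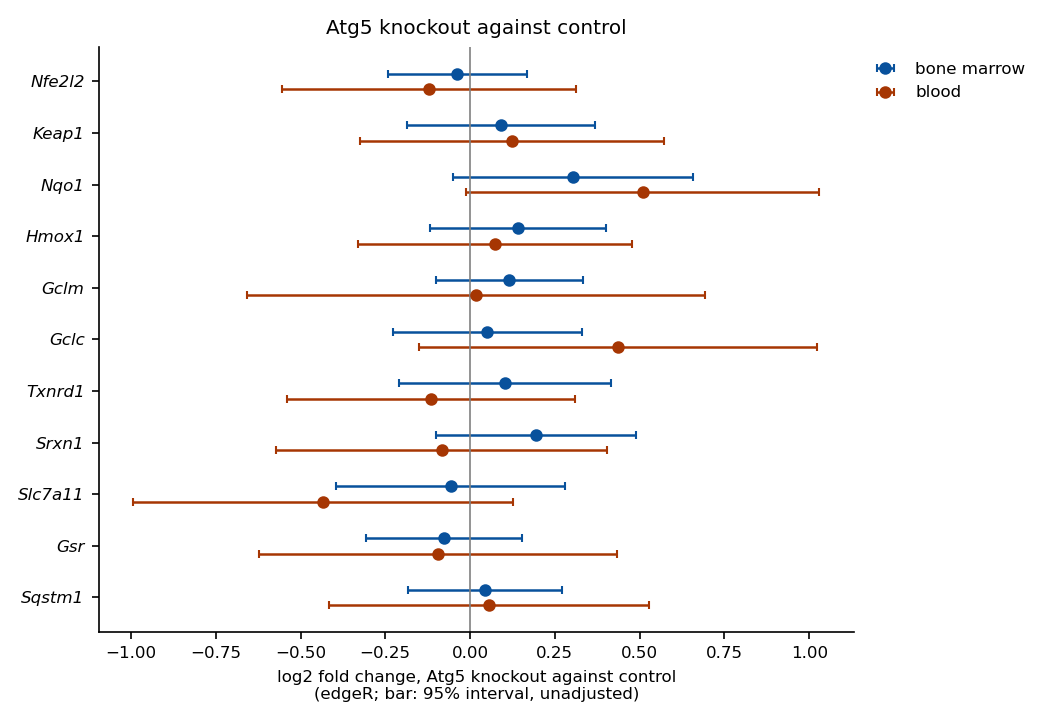
Log2 fold change of the 10 members and Sqstm1, Atg5 knockout against control, in bone marrow and in blood eosinophils, with unadjusted 95% intervals from edgeR. Every interval includes 0, and those of blood are wider than those of bone marrow for all 11 genes.

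In blood eosinophils the members were again not called, 0 of 10 against 0.0371% of the 13460 genes tested. Log2 fold changes lay between -0.43 for Slc7a11 and 0.51 for Nqo1, with 5 above and 5 below 0 and a median of -0.033, against 0.0062 over all genes tested. Knockout and control libraries overlapped for all 10 members, and did not overlap for 7.48% of the genes tested. The spread between replicates was larger here, with a common biological coefficient of variation of 0.365 against 0.146 in bone marrow.

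Nqo1 was measured at 45.0, 50.1 and 47.9 CPM in control and at 46.8, 70.7 and 83 CPM in knockout blood libraries. Knockout replicates 2 and 3 lay above all controls, and replicate 1 lay among them. The log2 fold change was 0.51 (SE 0.23, 95% interval of the fold 0.991 to 2.04, adjusted p 1, edgeR), an interval that reached from no change to above 2. Nqo1 was higher in 3 of 3 same-numbered pairs, with log2 ratios of 0.057, 0.50 and 0.79. Without both blood libraries numbered 1 it was 0.67, with an adjusted p of 0.872 by edgeR.

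Slc7a11, which supplies cystine for glutathione, had the opposite sign, at 111.7, 91.3 and 130.2 CPM in control and 62.4, 72.4 and 108.4 CPM in knockout blood libraries. Each knockout library was below the control library of the same number, but the groups overlapped (log2 fold change -0.43, SE 0.25, adjusted p 1, edgeR). Gclc was measured at 14.6, 12.3 and 11.2 CPM in control and 20.0, 12.5 and 18.3 CPM in knockout libraries, higher in 3 of 3 same-numbered pairs and not called (log2 fold change 0.44, SE 0.26, adjusted p 1, edgeR). Gsr was lower in 3 of 3 such pairs, with log2 ratios of -0.12, -0.054 and -0.16. The labels do not give these pairs, for Nqo1 as well. How many of all genes moved 1 way in 3 of 3 pairs was not computed, so this agreement is not read as a result.

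Gclm depended on single libraries in blood. It was measured at 64.1, 38.5 and 33.8 CPM in control and 33.5, 43.8 and 58.8 CPM in knockout libraries, so that the highest control was replicate 1 and the lowest knockout was replicate 1. Its log2 fold change was 0.017, and 0.52 without both libraries numbered 1 (adjusted p 0.872, edgeR). Red cell, T cell and B cell markers also moved with those libraries, and their part in the Gclm values was not tested. The same-numbered blood libraries deviated together, and with the replicate number as a block 0 of the 10 members were called, with a lowest adjusted p of 0.611, for Slc7a11 by edgeR.

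The knockout effect was not called as different between blood and bone marrow for any member, 0 of 10 against 0% of the 14712 genes tested by edgeR's interaction term. Over all genes 740 had an unadjusted p under 0.05, of which 0 were members, and DESeq2 called 14 genes. The largest differences of the effect, blood less bone marrow on the log2 scale, were -0.43 for Slc7a11 (95% interval -1.08 to 0.23, adjusted p 0.942, edgeR) and 0.34 for Gclc (95% interval -0.26 to 0.93, adjusted p 0.942, edgeR).

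Blood and bone marrow eosinophils differed in the transcripts of NRF2, KEAP1 and 4 of the targets. In control mice 6 of the 10 (60%) differed between blood and bone marrow eosinophils, where 34.2% of the 13669 genes tested did. In Atg5-knockout mice those 6 were called too, in the same directions, where 47.6% of the 13853 genes tested were called, so that the share of members there was nearer the background. Nqo1, Slc7a11, Srxn1 and Gsr were higher in blood, as were 2212 genes over the whole table in control and 3256 in knockout mice. Nfe2l2 and Keap1 were lower, as were 2466 and 3336 genes, and Hmox1, Gclm, Gclc and Txnrd1 were not called. These comparisons use the same libraries as the knockout comparisons. In bulk RNA, fewer cells of a type and less RNA per cell cannot be told apart.

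**Figure D3:**
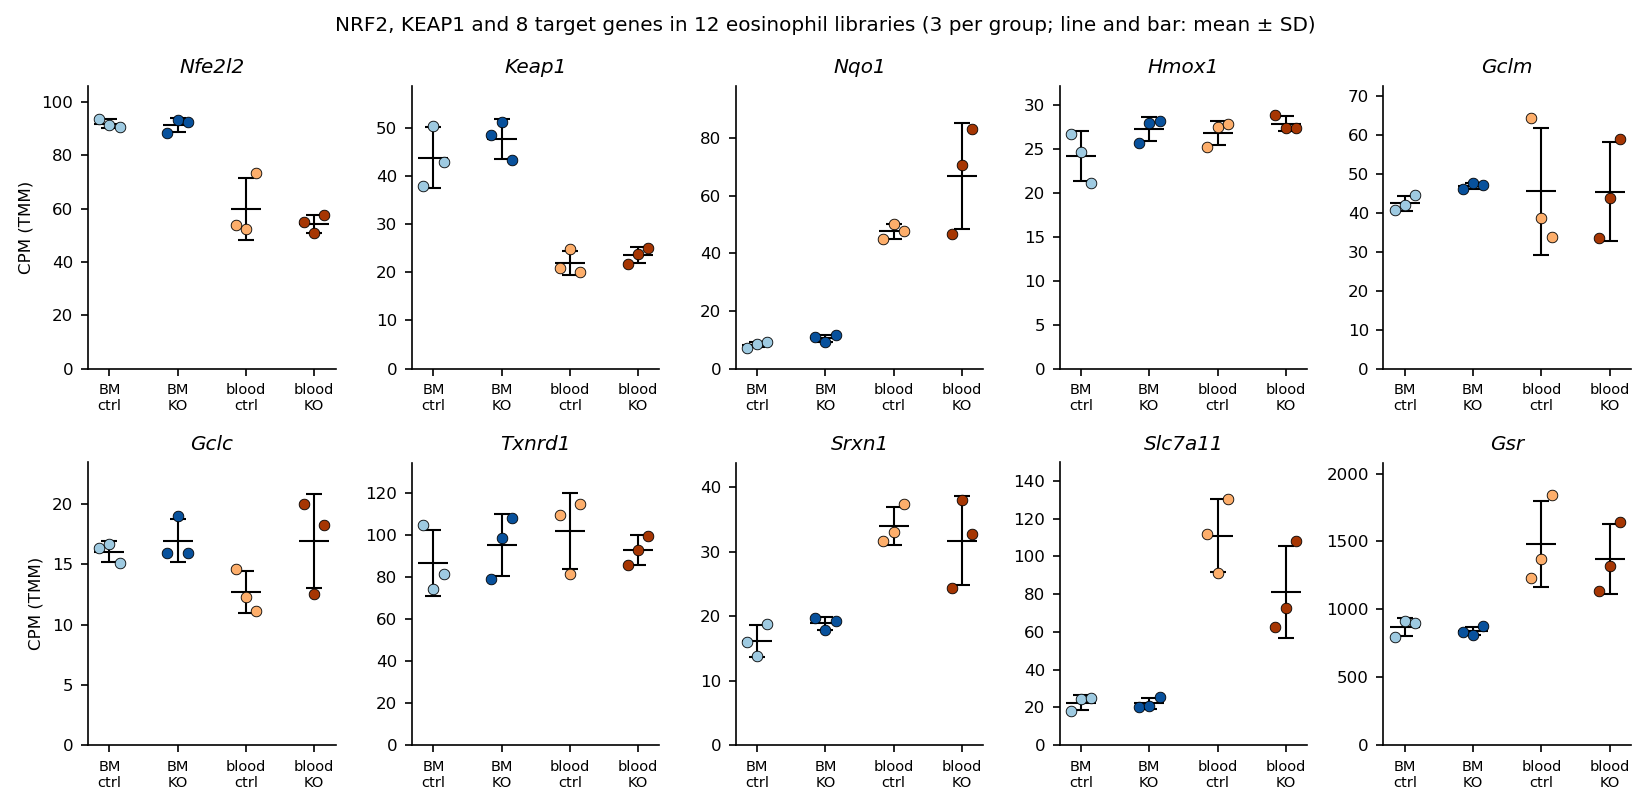
CPM of NRF2, KEAP1 and the 8 targets in each of the 12 libraries, with 1 panel per gene and the y axis from 0. Points are libraries, lines are group means and bars are SD (n = 3). Nqo1 and Slc7a11 separate blood from bone marrow in both genotypes, and Hmox1 overlaps between the tissues.

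Transcripts of NRF2 and of its inhibitor were both lower in blood. Nfe2l2 was 91.9 ± 1.68 CPM (SD, n = 3) in control bone marrow and 60.0 ± 11.7 CPM (SD, n = 3) in control blood, where replicate 3, at 73.5 CPM, was the highest of the blood libraries and still below every bone marrow library. The log2 fold change was -0.63 (SE 0.17, adjusted p 0.0227, edgeR) in control and -0.73 (SE 0.11, adjusted p 0.000853, edgeR) in knockout mice. The call in control mice was lost without any 1 of the 3 bone marrow control libraries or without blood control replicate 2, with adjusted p of 0.0656 to 0.0815 by edgeR, with log2 fold changes from -0.65 to -0.54 over those fits. Keap1 was 43.8 ± 6.31 CPM (SD, n = 3) in control bone marrow and 21.9 ± 2.51 CPM (SD, n = 3) in control blood, without overlap. Its log2 fold change was -1.01 (SE 0.18, adjusted p 0.00329, edgeR) in control mice, and its fold in knockout mice was 0.499 (95% interval 0.407 to 0.613, adjusted p 0.000357, edgeR).

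Nqo1 had the largest tissue difference of the members. From the 7.24 to 9.08 CPM of control bone marrow it was higher in every control blood library, at 45.0 to 50.1 CPM, a fold of 5.67 (95% interval 4.29 to 7.49, log2 fold change 2.50, adjusted p 2.71e-05, edgeR). In knockout mice it went from 9.11 to 11.6 CPM in bone marrow to 46.8 to 83 CPM in blood, a fold of 6.44 (95% interval 4.56 to 9.10, adjusted p 2.79e-05, edgeR). No bone marrow library of either genotype came near a blood library.

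Slc7a11 followed, with 17.9 to 25.2 CPM in control bone marrow and 91.3 to 130.2 CPM in control blood. The fold was 4.90 (95% interval 3.54 to 6.79, adjusted p 9.77e-05, edgeR) in control and 3.72 (95% interval 2.66 to 5.20, adjusted p 0.000162, edgeR) in knockout mice. Groups did not overlap in either genotype, and the lowest blood library, knockout replicate 1 at 62.4 CPM, was above every bone marrow library.

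Srxn1 and Gsr were higher by smaller amounts. Srxn1 went from 16.2 ± 2.45 CPM (SD, n = 3) to 34.0 ± 2.93 CPM (SD, n = 3) in control mice, a fold of 2.09 (adjusted p 0.00276, edgeR), and its fold in knockout mice was 1.70 (adjusted p 0.00738, edgeR). Gsr, which regenerates reduced glutathione, went from 868.0 ± 65.1 CPM (SD, n = 3) to 1481 ± 319 CPM (SD, n = 3) in control mice, a fold of 1.69 (adjusted p 0.0169, edgeR), and its fold in knockout mice was 1.64 (adjusted p 0.00505, edgeR). The Gsr call in control mice was lost without any 1 of the 3 bone marrow control libraries (adjusted p 0.0611 to 0.0791, edgeR) and with scaling to library size alone (log2 fold change 0.45, adjusted p 0.0982, edgeR).

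The other 4 targets were not called between the tissues. Hmox1, which breaks down heme, had log2 fold changes of 0.14 in control and 0.047 in knockout mice (95% intervals of the fold 0.844 to 1.43 and 0.848 to 1.26), and the sign was negative in both with scaling to library size alone. Gclm, the regulatory partner of Gclc, had 0.089 and -0.033 (intervals of the fold 0.730 to 1.55 and 0.726 to 1.32), and its control value was -0.23 without blood control replicate 1. Gclc had -0.35 in control mice, where its groups did not overlap, and 0.011 in knockout mice, and was called lower in control mice with scaling to library size alone (log2 fold change -0.66, adjusted p 0.0288, edgeR). Txnrd1 had 0.22 and -0.021 (intervals of the fold 0.856 to 1.58 and 0.789 to 1.23), and the control value was -0.096 with scaling to library size alone. Counting non-overlap in place of calls, 7 of 10 members separated in control mice against 50.1% of genes and 6 of 10 in knockout mice against 59.9%.

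**Figure D4:**
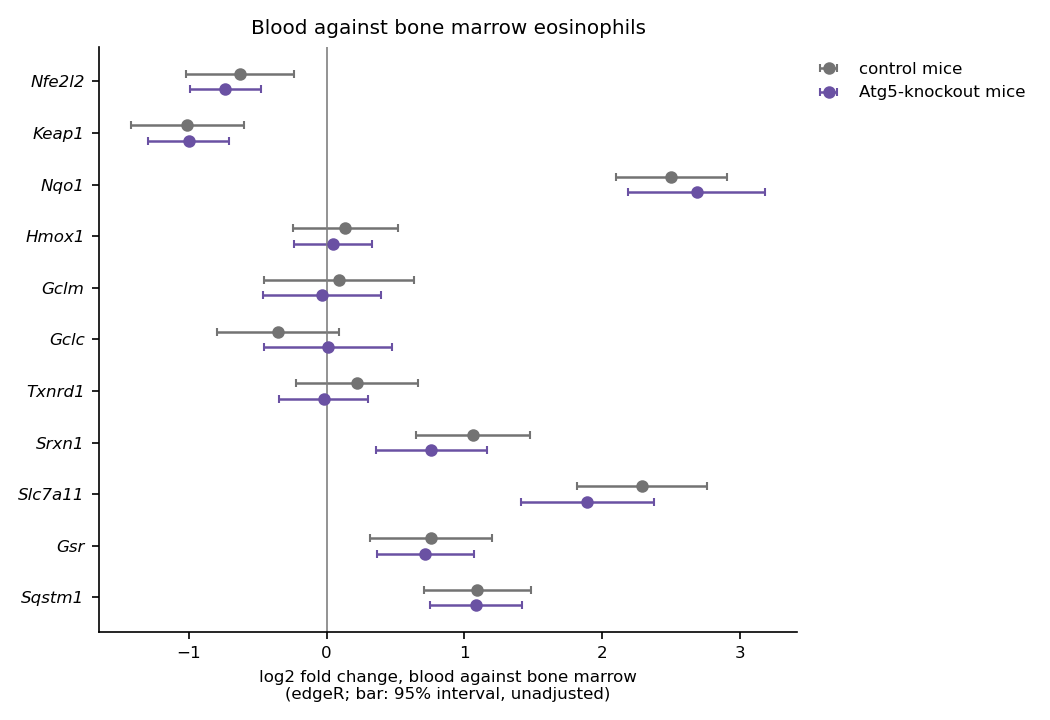
Log2 fold change of the 10 members and Sqstm1, blood against bone marrow eosinophils, in control and in Atg5-knockout mice, with unadjusted 95% intervals from edgeR. Nqo1 and Slc7a11 lie farthest above 0 and Keap1 farthest below 0 in both genotypes.

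Markers of eosinophils and of other cell types were also called between tissues, and their part in the member results was not tested. These calls are read against the 34.2% of all genes called in control and 47.6% in knockout mice. Near or below those shares were B cell (33.3%) and neutrophil markers (40%) in control mice. So were red cell (36.4%) and platelet markers (40%) in knockout mice. Shares of the other marker lists were larger. Of 10 eosinophil markers 2 were higher and 6 lower in blood in each genotype. T cell markers took 0.00208 to 0.0269% of counts in blood and 0.000714 to 0.000927% in bone marrow, where Cd3e had no count in any library. Of 8 listed T cell markers, 3 passed the filter in control mice, 2 of them called higher, and 7 passed in knockout mice, all 7 called higher. B cell markers took 0.0215 to 0.274% in blood and 0.0383 to 0.0410% in bone marrow, with 2 of 6 and 5 of 8 higher. Markers nearly absent from bone marrow could pass the filter only through blood libraries where they were high. The T and B cell calls are therefore a description and no support. Neutrophil markers took 0.957 to 1.19% in blood and 1.48 to 1.90% in bone marrow, with 4 of 10 lower in control mice, and 6 lower and 1 higher of 10 in knockout mice. Monocyte and macrophage markers took 0.331 to 0.627% in blood and 0.418 to 0.491% in bone marrow, with 5 higher and 2 lower of 11 in control mice and 4 higher and 3 lower of 11 in knockout mice. Platelet markers took 0.0299 to 0.0637% of counts in blood and 0.0377 to 0.0478% in bone marrow, with 8 of 10 higher in control mice, and 3 higher and 1 lower of 10 in knockout mice. Red cell markers were 7 higher and 1 lower of 11 in control mice and 4 lower of 11 in knockout mice, and without blood control replicate 1 the 6 members were still called, with log2 fold changes of 2.55 for Nqo1, 2.29 for Slc7a11, 1.11 for Srxn1, 0.88 for Gsr, -0.55 for Nfe2l2 and -0.97 for Keap1.

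Per exon length (RPKM, CPM divided by exon length in kilobases), Gsr was by far the most abundant member, at 315.2 RPKM in control bone marrow and 537.9 RPKM in control blood. In control bone marrow Nfe2l2 came next at 24.2 RPKM, followed by Hmox1 at 13.8, Txnrd1 at 12.3 and Keap1 at 9.34 RPKM, neighbours whose ranges overlapped. Gclm at 6.73, Srxn1 at 5.74 and Nqo1 at 5.36 RPKM overlapped next, and Gclc at 4.26 and Slc7a11 at 1.61 RPKM closed the order, separated from each other. In control blood Nqo1 moved up to 30.7 RPKM, above the overlapping Nfe2l2 at 15.8, Hmox1 at 15.3, Txnrd1 at 14.4 and Srxn1 at 12.1 RPKM. Slc7a11 at 7.98 and Gclm at 7.23 RPKM overlapped, and Keap1 at 4.67 and Gclc at 3.37 RPKM were lowest. In knockout mice Gsr was again highest, at 305.1 RPKM in bone marrow and 496.7 RPKM in blood.

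Counts for the further lists are read against the 34.2% of all genes called between tissues in control and 47.6% in knockout mice, where higher and lower calls were near equal in number. Of 14 partners and regulators of NRF2, 3 were higher and 2 lower in control blood (35.7%) and 4 higher and 3 lower in knockout blood (50%), near those shares. The small MAF genes, whose proteins pair with NRF2, went in different directions. Mafk was higher in blood (log2 fold change 1.28 in control, adjusted p 0.0105, and 1.02 in knockout mice, adjusted p 0.000742, edgeR) and Mafg was lower (-0.63, adjusted p 0.0346, and -0.85, adjusted p 0.00058, edgeR). Maff had log2 fold changes of 0.92 in control (adjusted p 0.0679, edgeR) and 2.17 in knockout mice, with 3.98 ± 0.040 CPM (SD, n = 3) in bone marrow and 17.7 ± 3.63 CPM (SD, n = 3) in blood (adjusted p 8.76e-05, edgeR). Bach1, a repressor at the same elements, read 82.1, 61.4 and 85.7 CPM in control bone marrow and 165.9, 91.98 and 98.2 CPM in control blood, and was called in knockout mice (0.67, adjusted p 0.0143, edgeR) but not in control mice (0.62, adjusted p 0.0848, edgeR), a difference between genotypes that was itself not called (adjusted p 1, edgeR interaction). Nfe2 had -0.19 in control (adjusted p 0.621, edgeR) and -0.85 in knockout mice (adjusted p 0.00157, edgeR). Btrc had 0.62 (adjusted p 0.0434, edgeR) and 0.29 (adjusted p 0.287, edgeR). Trim21 was lower in both (-0.74, adjusted p 0.0308, and -0.70, adjusted p 0.0108, edgeR).

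Transcripts of p62 and the other autophagy receptors and ATG8 proteins were mostly higher in blood. In control mice 7 of 10 were called higher and 0 lower (70%, against 34.2% of all genes tested). In knockout mice 7 were called higher and 1 lower (80%, against 47.6%). The list's median log2 fold change was 0.95 in control and 0.83 in knockout mice, against -0.0029 and -0.010 over all genes tested. Sqstm1 went from 230.8 ± 10.8 CPM (SD, n = 3) to 497.6 ± 84.8 CPM (SD, n = 3) in control mice, a fold of 2.14 (adjusted p 0.0017, edgeR), and its fold in knockout mice was 2.12 (adjusted p 0.000464, edgeR). Sqstm1 shares 580 exon bases with the antisense gene Mrnip. Map1lc3b, an ATG8 protein of the autophagosome membrane, had folds of 2.82 (adjusted p 0.000188, edgeR) and 3.06 (adjusted p 2.99e-05, edgeR). Calcoco1 had folds of 2.16 and 2.09, Gabarapl2 2.21 and 1.67, and Map1lc3a 2.07 and 2.58, all called. The receptor gene Optn went the other way in knockout mice, from 8.53 ± 1.23 CPM (SD, n = 3) in bone marrow to 2.55 ± 1.69 CPM (SD, n = 3) in blood, without overlap. In control mice Optn ran from 4.29 to 6.96 CPM in bone marrow and from 1.42 to 7.32 CPM in blood, which overlapped.

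Of 24 glutathione genes tested, 4 were higher and 6 lower in control blood (41.7%), and 8 higher and 9 lower in knockout blood (70.8%). Mgst1, a microsomal glutathione transferase, was higher (fold 2.04, adjusted p 0.00139, and 2.28, adjusted p 0.000178, edgeR). Gstm1, a cytosolic transferase, was lower (log2 fold change -1.52, adjusted p 0.000155, and -1.55, adjusted p 9.93e-05, edgeR). Chac2, which degrades glutathione, and the secreted peroxidase Gpx3 were lower as well, with log2 fold changes of -2.38 and -2.47 in control and -2.77 for both in knockout mice.

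Of 13 thioredoxin and peroxiredoxin genes, 2 were higher and 2 lower in control blood (30.8%), and 4 higher and 2 lower in knockout blood (46.2%), near the shares of all genes. Txnip, an inhibitor of thioredoxin, rose from 882.2 to 2624 CPM on average in control mice (adjusted p 0.00694, edgeR) and from 745.5 to 3169 CPM in knockout mice (adjusted p 2.92e-05, edgeR). Prdx6 was higher (log2 fold changes 0.80 and 0.84) and Prdx1 (-0.69 and -0.46) and Prdx4 (-1.96 and -1.67) were lower, all called. Catalase (Cat) was the 1 called gene of the 3 superoxide dismutase and catalase genes tested (33.3% in each genotype), with folds of 1.71 (adjusted p 0.0179, edgeR) and 1.80 (adjusted p 0.00359, edgeR). Among 6 genes of NADPH supply, 1 was called in control (16.7%) and 2 in knockout mice (33.3%). Taldo1 was higher in both, with folds of 2.18 and 2.07, and Idh1 had log2 fold changes of -0.70 (adjusted p 0.0587, edgeR) and -0.63 (adjusted p 0.00243, edgeR).

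Of 11 heme and iron genes, 5 were higher and 2 lower in control blood (63.6%), and 2 higher and 2 lower in knockout blood (36.4%, below the share of all genes). Over the control blood libraries Fech ran from 45.6 to 559.9, Blvrb from 28.0 to 79.6 and Slc48a1 from 155.6 to 268.2 CPM. Red cell markers took 14.8% of the counts of 1 of these libraries, and their part in the control share was not tested. The ferritin heavy chain Fth1 went up 2.24-fold (adjusted p 0.0052, edgeR) and 3.01-fold (adjusted p 0.000179, edgeR), and Ftl1 had folds of 1.75 (adjusted p 0.00834, edgeR) and 1.23 (adjusted p 0.155, edgeR). The transferrin receptor Tfrc (-1.76 and -1.55) and Alas1, the first enzyme of heme synthesis (-1.22 and -1.67), were lower. Slc40a1, the iron exporter, was higher in both (0.64, adjusted p 0.0271, and 0.51, adjusted p 0.00742, edgeR). Of 12 detoxification and export genes, 3 were higher and 2 lower in control blood (41.7%), and 4 higher and 3 lower in knockout blood (58.3%). Abcc5 was higher (folds 2.90 and 2.40), Ptgr1 was lower (log2 fold changes -1.91 and -2.04), and so was Pir (-1.93, adjusted p 0.0179, and -1.96, adjusted p 0.0142, edgeR). Pir counts were few, 29 in all in control blood and 34 in knockout blood, against 163 and 179 in bone marrow. Abcc4 had -0.068 in control (adjusted p 0.785, edgeR) and -0.54 in knockout mice (adjusted p 0.00816, edgeR). By edgeR's interaction term no gene of the whole table was called as different in its tissue change between the genotypes (DESeq2 called 14), so values called in 1 genotype alone are not shown to differ. Ephx1 was called higher in both but ran from 0.786 to 8.54 CPM in control and 0.818 to 14.02 CPM in knockout blood libraries.

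**Figure D5:**
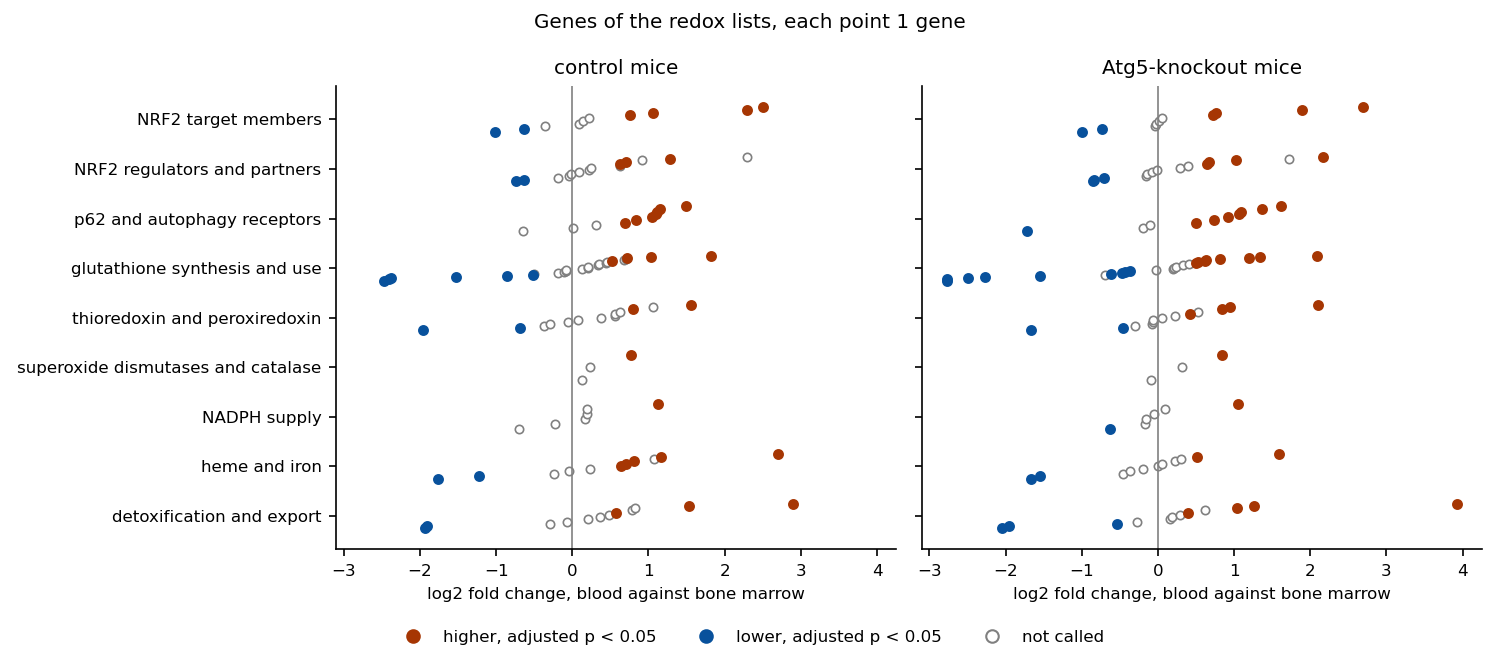
Log2 fold change, blood against bone marrow, of the genes tested in the members' list and 8 further lists, in control mice on the left and Atg5-knockout mice on the right, with 1 point per gene. Filled points passed an adjusted p under 0.05, and most called autophagy receptor genes lie above 0 while the glutathione list has called genes on both sides.

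In the knockout comparisons 0 genes of these 8 lists were called by edgeR in either tissue, and the 2 genes of lowest p in each list are given as values. In bone marrow the lowest adjusted p were 0.274 for Abcc4 (36.3 ± 0.569 CPM in control, 46.8 ± 3.38 CPM in knockout, SD, n = 3, edgeR), 0.353 for Optn and 0.353 for Fech. Chac1, which degrades glutathione, had the highest log2 fold change of the named genes, 0.84, and Ggt5 the lowest, -0.56. Those of Btrc, Rbx1, Calcoco1, Txnip, Sesn1, Fth1, Ptgr1, Taldo1, G6pdx, Cat and Sod2 lay between -0.27 and 0.27. All 11 red cell markers tested were higher in knockout bone marrow at an unadjusted p under 0.05 by edgeR, beside Fech, which makes heme. Over all 13781 genes tested, 1333 had an unadjusted p under 0.05 in either direction by edgeR. Of these markers 1 was called, where 0.348% of all genes were. Another count, of groups without overlap, gave 5 markers, all higher in knockout, where 7.13% of all genes were higher without overlap (14.2% in either direction). Red cell markers took 0.420, 0.738 and 0.208% of counts in knockout replicates 1, 2 and 3, and 0.140 to 0.253% in control libraries.

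In blood every adjusted p of these genes was 1 by edgeR. Maff stood at 8.40 ± 3.39 CPM (SD, n = 3) in control and 17.7 ± 3.63 CPM (SD, n = 3) in knockout libraries, without overlap. Of all genes tested 7.48% did not overlap in either direction. Calcoco1, Prdx2, G6pdx and Slc48a1 did not overlap either, with the knockout libraries below the control libraries. Fech ran from 45.6 to 559.9 CPM over the control and from 37.4 to 49.3 CPM over the knockout libraries, and red cell markers took 14.8% of the counts of 1 control library. Gstm5, at -2.09, had the lowest log2 fold change after Fech at -2.36. Its levels were low and overlapped, at 0.792 to 5.92 CPM over the control and 0.460 to 0.858 CPM over the knockout libraries. Prdx2, a peroxiredoxin abundant in red cells, had -0.77, and its control libraries ran from 118.3 to 237.9 CPM. Those of Nfe2, Calcoco1, Gabarapl2, Gss, Prdx5, Sod1, Sod2, G6pdx, Taldo1, Slc48a1, Abcc5 and Osgin1 lay between -0.68 and 0.44.

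Across the 12 libraries, which share their tissue groups, the members called between tissues fell into sets by Pearson correlation of log2 CPM, given as a description. Nfe2l2 and Keap1 correlated at 0.87 with each other, and Nqo1, Srxn1, Slc7a11 and Gsr at 0.90 to 0.96 among themselves. Correlations between these sets were negative, from -0.93 to -0.74. These members were picked by their tissue calls, so the signs largely restate those calls and are no separate result. Hmox1, Gclm, Gclc and Txnrd1 were in neither set, with correlations to Nqo1 of 0.42, 0.053, -0.34 and 0.24. The genes most like Nfe2l2 over the 12 libraries, among all genes tested, were Nucks1, Hmgb3 and Tmem215, each at 0.985. Those most like Keap1 were Knstrn at 0.988, Armt1 at 0.987 and Larp7 at 0.986.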

How the data were processed

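RNA from eosinophils, isolated by depletion of other cells, was prepared as stranded mRNA libraries and sequenced single-end. The authors aligned the reads with HISAT2 2.2.1 (per the submitters' processing notes) and deposited raw counts per gene. Per the file header these came from featureCounts 2.0.1 with Ensembl release 92 on GRCm38, without a strand option, whereas the study's methods name an annotation on GRCm39. Coordinates are those of the count table, and 49674 of the identifiers matched a symbol in GENCODE M39.

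Each comparison of 2 groups was fitted on its 6 libraries, and the interaction on all 12, with edgeR 4.0.16 in R 4.3.3 (TMM, filterByExpr with a minimum count of 10 and minimum total of 15, prior count 0.125, quasi-likelihood test, Benjamini-Hochberg over all genes tested). Alternatives were DESeq2 1.42.0, limma-voom (limma 3.58.1), other scalings, no filter, all 12 libraries, a replicate block, a log2 fold change beyond 2, and leaving out libraries. Leaving out both blood libraries numbered 1 was chosen after seeing the data. The fits were tested on simulated data.

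The members and lists were chosen with earlier results of these data known. Named were all members, Sqstm1, Bach1 and Atg5, in each other list the genes called between genotypes or else the 2 of lowest p, up to 4 called genes of lowest adjusted p between tissues, and the 3 genes most correlated with Nfe2l2 and with Keap1. Per the design text both tissues came from 3 mice of each genotype. Which libraries share a mouse is not given, so tissue comparisons were fitted without pairing and their p-values ignore any shared mouse. Same-numbered blood libraries of the 2 genotypes deviated together (correlations 0.637, 0.439 and 0.398), and those of the other comparisons did not in every pair. The labels give only replicate numbers and no pairing. The blood fit was therefore unpaired, with the replicate block as an alternative, and values of same-numbered pairs are a description. No 2 libraries of a group agreed within sampling noise.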

Additional observations from a re-analysis of the deposited data

How the results depend on the processing

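No member was called between genotypes under any alternative, and the 6 members called between tissues kept their direction under all of them. Scaling to library size alone put the median log2 fold change of all genes between tissues at -0.31 in control mice and -0.24 in knockout mice. It changed the higher and lower calls from 2212 and 2466 to 1308 and 3906 in control mice, and from 3256 and 3336 to 2258 and 4333 in knockout mice.

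Genes called between genotypes in bone marrow (48) numbered 193 with DESeq2, 420 without a filter, 12 with all 12 libraries in the fit, 23 with the replicate block, 13 with a log2 fold change beyond 2 as well, and 18 to 219 with 1 library left out, the 219 without control replicate 1. Those in blood (5) numbered 22 with DESeq2, 77 without a filter, 16 with 12 libraries, 10 with the replicate block and 2 to 6 with 1 library left out. Between tissues, a log2 fold change beyond 2 left 1309 and 1578 genes and 2 and 1 members in control and knockout mice. With 1 library left out, control mice gave 2627 to 5926 genes and 4 to 6 members. The interaction gave 14 genes with DESeq2 and 119 without a filter. The replicate block left the members called at 0, 0, 6, 6 and 0 over the 5 comparisons.

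Signs turned only for values not called. Between genotypes in blood, Gclm was -0.0100 without a filter and -0.0036 with 12 libraries, and Srxn1 0.022 without both libraries numbered 1. Between tissues in control mice, library size alone gave -0.17 for Hmox1, -0.22 for Gclm and -0.096 for Txnrd1. In knockout mice it gave -0.18 for Hmox1 and -0.21 for Gclc, Hmox1 was -0.017 without a filter, and Gclc was -0.016 with limma-voom, -0.056 without a filter, -0.0044 with 12 libraries and -0.0092 with the replicate block. For the interaction, Keap1 was 0.0033 with DESeq2, 0.0049 with RLE factors, 0.080 with library size alone and 0.026 without both libraries numbered 1. Library size alone gave 0.032 for Gsr and 0.063 for Sqstm1, and leaving out both libraries numbered 1 gave 0.38 for Gclm and 0.018 for Sqstm1.

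With 1 library left out, the bone marrow genotype values ran from -0.0071 to 0.21 for Keap1, -0.035 to 0.097 for Gclc, -0.0031 to 0.25 for Txnrd1 and -0.20 to 0.028 for Slc7a11. In blood they ran from -0.21 to 0.052 for Nfe2l2, -0.22 to 0.34 for Gclm, -0.23 to 0.066 for Srxn1, -0.26 to 0.094 for Gsr and -0.058 to 0.20 for Sqstm1. Between tissues they ran from -0.23 to 0.27 for Gclm in control mice and, in knockout mice, from -0.0074 to 0.061 for Hmox1, -0.26 to 0.14 for Gclm, -0.13 to 0.19 for Gclc and -0.15 to 0.067 for Txnrd1. For the interaction they ran from -0.23 to 0.034 for Nfe2l2, -0.14 to 0.077 for Keap1, -0.034 to 0.39 for Nqo1, -0.38 to 0.18 for Gclm, -0.23 to 0.11 for Gsr and -0.15 to 0.11 for Sqstm1. The cause was not tested for any of these.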
